A study of Mus musculus with 6 samples.

Results

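Matrix metalloproteinases (MMPs), the ADAMTS proteases, the ADAMTS-like proteins and the tissue inhibitors of metalloproteinases (TIMPs) were examined in gene arrays of primary mouse osteoblasts. Members were all genes whose symbol, found through the RefSeq accession of a probe, is Mmp with a number, Adamts with a number, Adamtsl with a number, or Timp1 to Timp4. There were 49 such genes on the array among 20659 named genes: 22 MMP, 19 ADAMTS, 4 ADAMTSL and 4 TIMP genes, read by 64 probes. The osteoblasts were isolated from the calvaria of CD1 mice that were 2 to 5 days old. Undifferentiated osteoblasts were harvested at confluence, differentiated osteoblasts were kept for 30 days in medium with ascorbic acid and β-glycerol phosphate, and cabozantinib-treated osteoblasts were kept for 30 days in that medium with cabozantinib (XL184), an inhibitor of the MET and VEGFR2 receptor kinases. Each condition had 2 arrays. The labels do not say whether the 2 arrays of a condition came from separate cultures or litters, so the spread between them may be technical. The comparisons asked which matrix proteases change when osteoblasts differentiate and which differ when differentiation takes place with the kinase inhibitor.

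MMPs are zinc enzymes that are made as inactive proenzymes and cut collagens, gelatins, elastin and other matrix proteins once their propeptide is removed. ADAMTS proteases are secreted, bind the matrix through thrombospondin repeats, and include enzymes that cut proteoglycans such as aggrecan and versican and enzymes that trim procollagens. ADAMTS-like proteins share the thrombospondin repeats but lack the protease domain, and TIMPs bind the active site of these enzymes. In bone, osteoblast MMP13 and MMP14 act on collagen, and MMP9 is known from osteoclasts.

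Signals are given as log2 of the array intensity minus the 75th percentile of the same array, so that 0 is the upper quartile of that array. Between 58.8% and 72.9% of the spots on an array passed the scanner software's call of being well above background. Arrays of the 4 undifferentiated and differentiated samples shared 1 scan identifier in the file headers, and both cabozantinib arrays shared another. Each identifier was taken as a slide, so slide and cabozantinib cannot be told apart. Of the 10 osteoblast markers with a probe, between 8 and 10 were well above background on each array. So were between 9 and 10 of the 11 markers of macrophages and osteoclasts. The cultures came from digested calvaria and can hold cells other than osteoblasts. In differentiated against undifferentiated osteoblasts, 5 of the 10 osteoblast markers were called higher and 1, Spp1, lower. Of the other cell types, 4 of 8 chondrocyte markers and 5 of 7 adipocyte markers were called higher, against 5.26% of all genes. In these lists 3 chondrocyte markers and 1 adipocyte marker measured lower, and 0 were called lower. The part of such cells in the results was not tested. In bulk RNA, fewer cells of a type and less RNA per cell cannot be told apart.

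The dim end read lower on the cabozantinib arrays, and slide and cabozantinib cannot be told apart in this shift. Genes were divided into 5 equal bins by their mean signal over the 6 arrays. In the dimmest bin the median log2 fold change of cabozantinib against differentiated osteoblasts was -1.31, and 25.3% of its probe readings were well above background with cabozantinib against 71.9% without it. The median was -0.82 in the next bin and between -0.19 and -0.04 in the other 3. For cabozantinib against undifferentiated osteoblasts the median of the dimmest bin was -1.30. Differentiated against undifferentiated, within 1 slide and without cabozantinib, gave medians between 0.06 and 0.18 in all 5 bins. Of the 37 member genes tested, 10 lie in the dimmest bin and 4 in the next, and 6 members were well above background on all 4 arrays without cabozantinib and on neither array with it (Mmp1a, Mmp7, Mmp14, Mmp28, Adamts16 and Adamtsl2). The same was true of 5.02% of all genes tested.

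**Figure D1:**
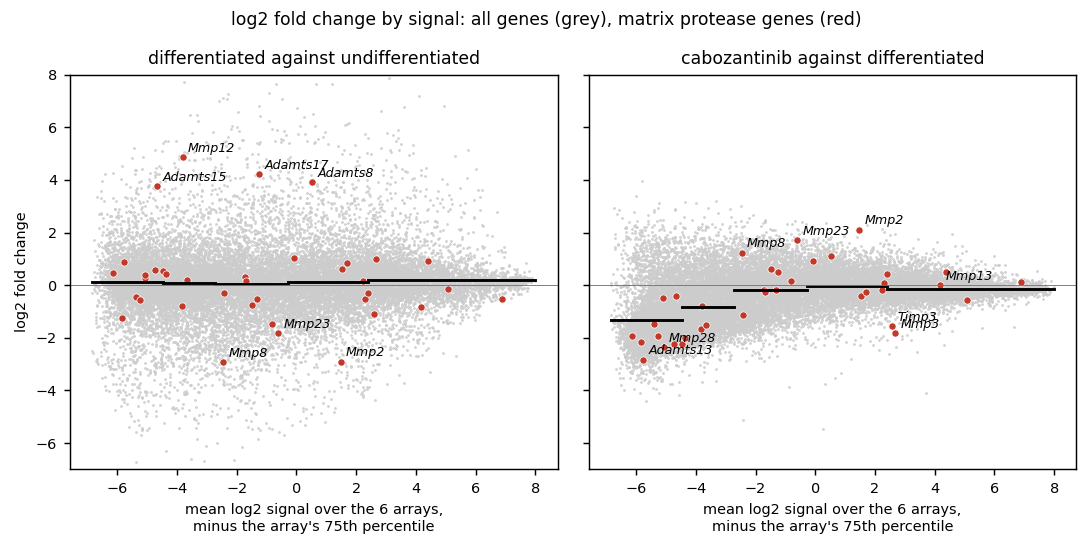
log2 fold change (vertical axis) against mean log2 signal over the 6 arrays (horizontal axis) for all genes tested (grey) and matrix protease and TIMP genes (red), with black bars for the median of each of 5 equal bins of the genes. On the right the bars fall to -1.31 at the dim end, where Adamts13 and Mmp28 lie, while Mmp2, Mmp23, Mmp3 and Timp3 lie at brighter signals away from the bars.

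Of the 49 genes, 37 had a probe well above background on at least 2 arrays and were tested, 3 reached that level on 1 array only (Adamts3, Adamts12 and Adamtsl3), and 9 on none. The 9 were Mmp15, Mmp16, Mmp20, Mmp21, Mmp25, Adamts6, Adamts10, Adamts19 and Adamts20. Of these, Mmp16 encodes a membrane-type collagenase and Mmp20 the protease of tooth enamel. Mmp27 and Adamtsl5 had no probe matched here.

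Differentiation was accompanied by higher signals of Mmp12 and 3 ADAMTS genes and lower signals of Mmp8 and Mmp2. In differentiated against undifferentiated osteoblasts, 4 of the 37 genes were called higher (Mmp12, Adamts8, Adamts15 and Adamts17) and 2 lower (Mmp8 and Mmp2) at an adjusted p under 0.05. The probes used for Mmp12 and Adamts15 were well above background on no undifferentiated array, so the filter favored the direction of their calls. Over all genes 5.26% were called higher and 4.45% lower. The median log2 fold change of the members was 0.18 and that of all genes 0.11.

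Cabozantinib against differentiated osteoblasts gave 0 members called higher and 2 called lower (Adamts13 and Mmp28). Both were well above background, as testing required, only on arrays without cabozantinib, so the filter favored the direction of their calls. With no filter on dim probes the count of members called was 0. Over all genes 0.121% were called higher and 2.55% lower, and 484 of the 588 genes called lower were in the dimmest bin. The median was -0.39 for the members and -0.29 for all genes. These 2 calls were absent after quantile normalization and with the authors' log2 values, where no gene of the array was called, and the count was 0 or 1 without any 1 of the differentiated or cabozantinib arrays and 16 without either undifferentiated array.

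Cabozantinib-treated against undifferentiated osteoblasts gave 5 members higher (Adamts8, Adamts17, Mmp12, Adamts15 and Adamts9) and 8 lower (Timp3, Mmp10, Mmp1a, Adamtsl2, Mmp28, Adamts13, Mmp8 and Mmp1b). Of the lower ones, Mmp1a, Adamtsl2, Mmp28, Adamts13 and Mmp1b were well above background only on arrays without cabozantinib. The probes used for Mmp12 and Adamts15 were so only on differentiated and cabozantinib arrays. For all of these the filter favored the direction of the call. Over all genes 4.68% were called higher and 8.71% lower. After quantile normalization 4 members were higher and 1, Timp3, was lower. Among all genes called, 1081 of 3092 were higher, and 949 of 1316 after quantile normalization. The members had a median of -0.71 and all genes one of -0.35. The count was 4 without the first cabozantinib array and 5 without the second. This comparison shares its arrays with the other two and crosses the slides.

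**Figure D2:**
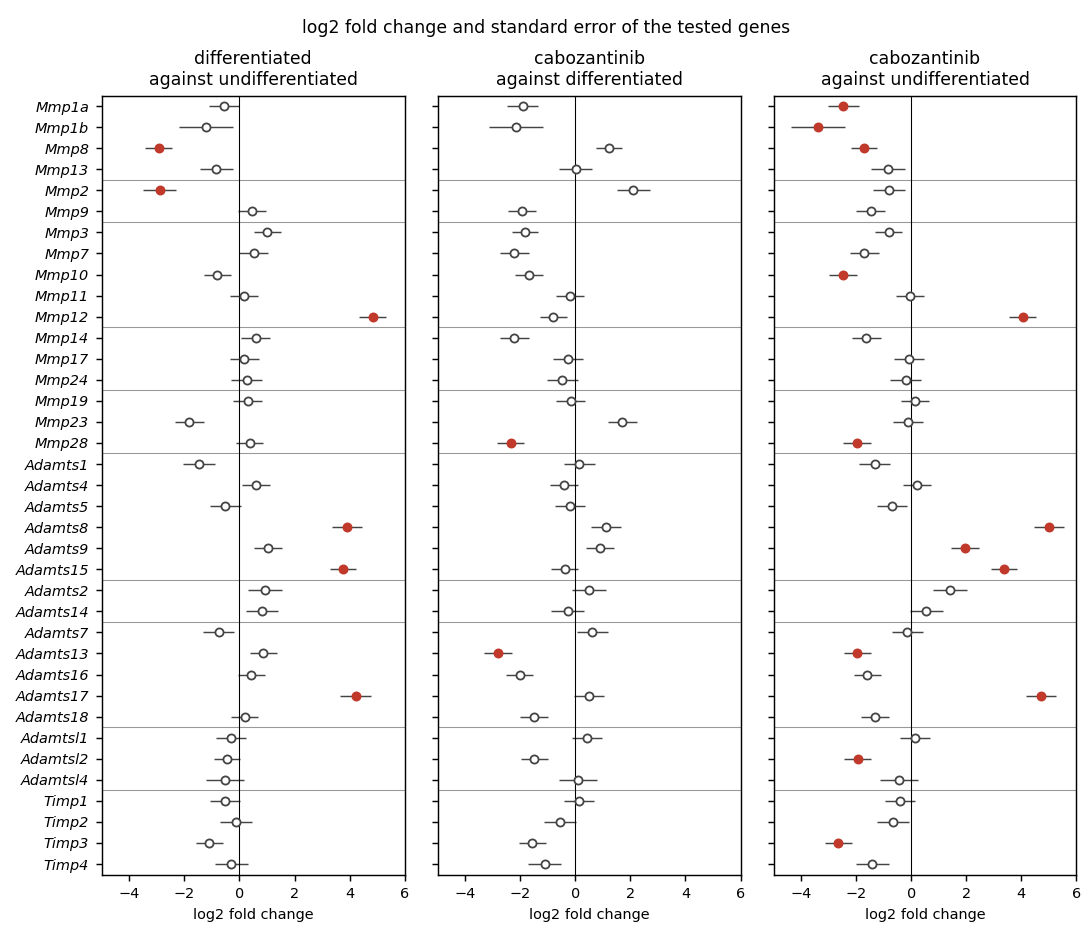
log2 fold change (horizontal axis) of the 37 tested genes, ordered by role from collagenases (top) to TIMPs (bottom), in the 3 comparisons, with bars for the standard error and red points for an adjusted p under 0.05. Mmp12, Adamts8, Adamts15 and Adamts17 stand to the right of 0 in both comparisons with undifferentiated osteoblasts, and Mmp2, Mmp8 and Mmp23 stand left of 0 in the first panel and right of 0 in the second. The first and second panels share the differentiated arrays.

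Among the collagenases, which cut fibrillar collagen, Mmp8 fell with differentiation and Mmp13 did not pass any test. Mmp8, the collagenase best known from neutrophils, measured -0.81 and -1.02 before differentiation, -3.94 and -3.77 after it and -2.63 and -2.62 with cabozantinib. The 3 pairs did not overlap, and the cabozantinib pair lay between the other two. Both comparisons with the differentiated pair share its arrays, so they are not independent of each other. Mmp8 was 7.66-fold lower in differentiated than in undifferentiated osteoblasts (log2 -2.94 ± 0.48, standard error; adjusted p = 0.00471). Cabozantinib against differentiated osteoblasts gave a log2 fold change of 1.23 ± 0.48, 2.34-fold, which did not pass the test (adjusted p = 0.163), and cabozantinib against undifferentiated ones gave -1.71 ± 0.48 (adjusted p = 0.0457). The second was not called after quantile normalization (log2 -1.41, adjusted p = 0.0744). Mmp8, Adamts8 and Adamtsl1 were picked by the study on these same arrays, so their directions are not independent evidence.

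Neutrophil markers were examined beside Mmp8. Of 8 markers with a probe, 6 were tested, and 5 measured lower and 1 higher in differentiated than in undifferentiated osteoblasts. Of these, 3 were called lower, namely S100a8, S100a9 and Ltf. The higher one was Elane (log2 0.22, adjusted p = 0.932). Elane measured 2.14 and 1.48 before differentiation and 1.86 and 2.20 after it, where it was the brightest tested marker of the list. The summed level of the list, in multiples of the 75th percentile, was 14 and 7.64 before differentiation, 4.13 and 5.21 after it and 2.82 and 3.61 with cabozantinib. S100a9 measured 2.90 and 1.70 in undifferentiated osteoblasts and between -7.74 and -7.12 on the other 4 arrays, where it was not well above background. Ngp and Cxcr2 were not well above background on any array. In cabozantinib against differentiated osteoblasts 3 of the 6 tested markers measured higher and 3 lower, and 0 were called. The part of these cells in the Mmp8 result was not tested.

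Mmp13, the main collagenase of osteoblasts and hypertrophic cartilage, measured 4.30 and 5.17 in undifferentiated osteoblasts, 4.60 and 3.18 after differentiation and 4.30 and 3.50 with cabozantinib. All 3 groups overlapped, and the log2 fold change of cabozantinib against differentiated osteoblasts was 0.01 ± 0.61 (adjusted p = 0.998). The rodent genes related to human MMP1 were dim. Mmp1a measured -3.70 and -4.79, then -5.01 and -4.59, then -6.95 and -6.47 with cabozantinib, where it was not well above background. It was at least 2.26-fold lower with cabozantinib than in undifferentiated osteoblasts (adjusted p = 0.0218). Mmp1b measured -4.45 and -4.15 in undifferentiated osteoblasts, -3.34 and -7.71 in differentiated ones and -7.74 and -7.63 with cabozantinib. The differentiated arrays disagreed, with 1 well above background and 1 not, and Mmp1b was at least 2.18-fold lower with cabozantinib than in undifferentiated osteoblasts (adjusted p = 0.0478).

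Of the gelatinases, which digest denatured collagen, Mmp2 fell with differentiation and was measured higher again with cabozantinib. Mmp2, a secreted gelatinase of stromal cells that is activated by MMP14, measured 2.21 and 3.21 before differentiation, 0.23 and -0.61 after it and 2.33 and 1.50 with cabozantinib. The differentiated pair lay below both other pairs, which overlapped. The fall and the higher value with cabozantinib rest on the same 2 differentiated arrays, so they are not independent of each other. Mmp2 was 7.48-fold lower in differentiated than in undifferentiated osteoblasts (log2 -2.90 ± 0.59, adjusted p = 0.0125). With cabozantinib it was 4.3-fold higher than in differentiated osteoblasts (log2 2.11 ± 0.59, adjusted p = 0.0731), which did not pass the test. Without the replicate term, which rests on numbers not shown to pair the arrays, that comparison was called at an adjusted p of 0.042, and over the alternative fits its adjusted p ranged from 0.00436 to 1. The call in differentiation was lost after quantile normalization (log2 -3.03, adjusted p = 0.0565), with the authors' log2 values (log2 -3.03, adjusted p = 0.0563) and without the second differentiated array (log2 -2.44, adjusted p = 0.0941). Mmp9, the gelatinase of osteoclasts and leukocytes, measured -6.06 and -5.55, then -5.13 and -5.58, then -7.12 and -7.44 with cabozantinib. Only 2 of the 6 readings of Mmp9 were well above background, and no comparison was called (lowest adjusted p = 0.0642).

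Mmp23, which encodes an MMP anchored in the membrane by its propeptide, followed the same order as Mmp2 and is described after its values were seen. Mmp23 measured 0.00 and 0.07 in undifferentiated osteoblasts, -2.26 and -1.34 after differentiation and 0.11 and -0.28 with cabozantinib. The differentiated arrays were the low pair. Its log2 fold change was -1.83 ± 0.53 in differentiated against undifferentiated osteoblasts (adjusted p = 0.0574) and 1.71 ± 0.53 in cabozantinib against differentiated osteoblasts (adjusted p = 0.0892), and neither passed the test. Both values rest on the same 2 differentiated arrays, so they are not independent of each other. Without the replicate term the second was called at an adjusted p of 0.0404, and over the alternative fits its adjusted p ranged from 0.0136 to 1.

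The stromelysins, matrilysin and metalloelastase cut proteoglycans, fibronectin and elastin. Mmp12, the elastase of macrophages, was called higher in differentiation by 1 of its 2 probes. That probe measured -6.83 and -6.72 before differentiation, where it was not well above background, -1.80 and -2.05 after it and -2.84 and -2.62 with cabozantinib. Against the lowest signal that counted as well above background, Mmp12 was at least 13.9-fold higher in differentiated osteoblasts (fitted log2 4.85 ± 0.49, adjusted p = 0.000492) and at least 8-fold higher in cabozantinib-treated osteoblasts (adjusted p = 0.00174) than in undifferentiated ones. Cabozantinib against differentiated osteoblasts gave -0.80 ± 0.49 (adjusted p = 0.389).

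Macrophage and osteoclast markers were examined beside Mmp12. Of 11 markers with a probe, 10 were tested, and 9 measured higher and 1 lower in differentiated than in undifferentiated osteoblasts. Of these, 4 were called higher (Adgre1, Csf1r, Acp5 and Dcstamp), and over all genes 5.26% were. The lower one was Lyz2 (log2 -1.28, adjusted p = 0.547), and Oscar (log2 0.02) and Itgb3 (log2 0.13) hardly differed. The summed level of the list was 95.1 and 55 multiples of the 75th percentile before differentiation, 310 and 468 after it and 281 and 352 with cabozantinib. Adgre1, a surface receptor of macrophages, measured 2.23 and 2.51, then 6.23 and 6.59, then 5.98 and 5.77. Calcr, the calcitonin receptor of mature osteoclasts, was not well above background on any array. The part of these cells in the Mmp12 result was not tested.

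Mmp3 was lower with cabozantinib on both arrays, at a bright signal. Mmp3, stromelysin 1, measured 2.44 and 2.79 in undifferentiated osteoblasts, 3.43 and 3.81 after differentiation and 1.87 and 1.71 with cabozantinib. The 3 pairs did not overlap. The log2 fold change was -1.83 ± 0.49 in cabozantinib against differentiated osteoblasts, a 3.55-fold difference (adjusted p = 0.0663), and 1.01 ± 0.49 in differentiated against undifferentiated ones (adjusted p = 0.288). Neither passed the test. Without the replicate term the first was called at an adjusted p of 0.0266, and over the alternative fits it ranged from -2.09 to -1.56 with an adjusted p from 0.00587 to 1. Mmp10, stromelysin 2, measured -3.09 and -2.40, then -3.49 and -3.60, then -5.36 and -5.09 with cabozantinib, and was called lower with cabozantinib than in undifferentiated osteoblasts (log2 -2.48 ± 0.50, adjusted p = 0.0144). Only 1 of the 2 cabozantinib readings of Mmp10 was well above background. The call was lost after quantile normalization (log2 -1.70, adjusted p = 0.0977), after normexp correction (log2 -1.47, adjusted p = 0.3335), with the authors' log2 values (adjusted p = 0.0982) and without either cabozantinib array (adjusted p = 0.128 and 0.158).

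Membrane-type MMPs, held at the cell surface, were mostly dim, and 3 of the 6 were tested. Mmp14, which encodes MT1-MMP, the activator of pro-MMP2, measured -4.04 and -4.73 before differentiation, -3.71 and -3.87 after it and -6.32 and -5.71 with cabozantinib, where it was not well above background. It was at least 3.09-fold lower with cabozantinib than in differentiated osteoblasts, at an adjusted p of 0.0525 that did not pass the test. The array has 1 probe matched to Mmp14, in the dimmest bin, where all genes had a median of -1.31. Outside the membrane-type class, Mmp28, epilysin, measured -4.29 and -4.79, then -4.32 and -4.02, then -6.42 and -6.63. Mmp28 is in the same bin as Mmp14, and its other probe was not well above background on any array. Mmp28 was called lower with cabozantinib than in differentiated osteoblasts by at least 2.38-fold (fitted log2 -2.35 ± 0.50, adjusted p = 0.0473). After quantile normalization its log2 fold change was -1.47 with an adjusted p of 0.183, and over the alternative fits the adjusted p ranged from 0.00436 to 1.

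**Figure D3:**
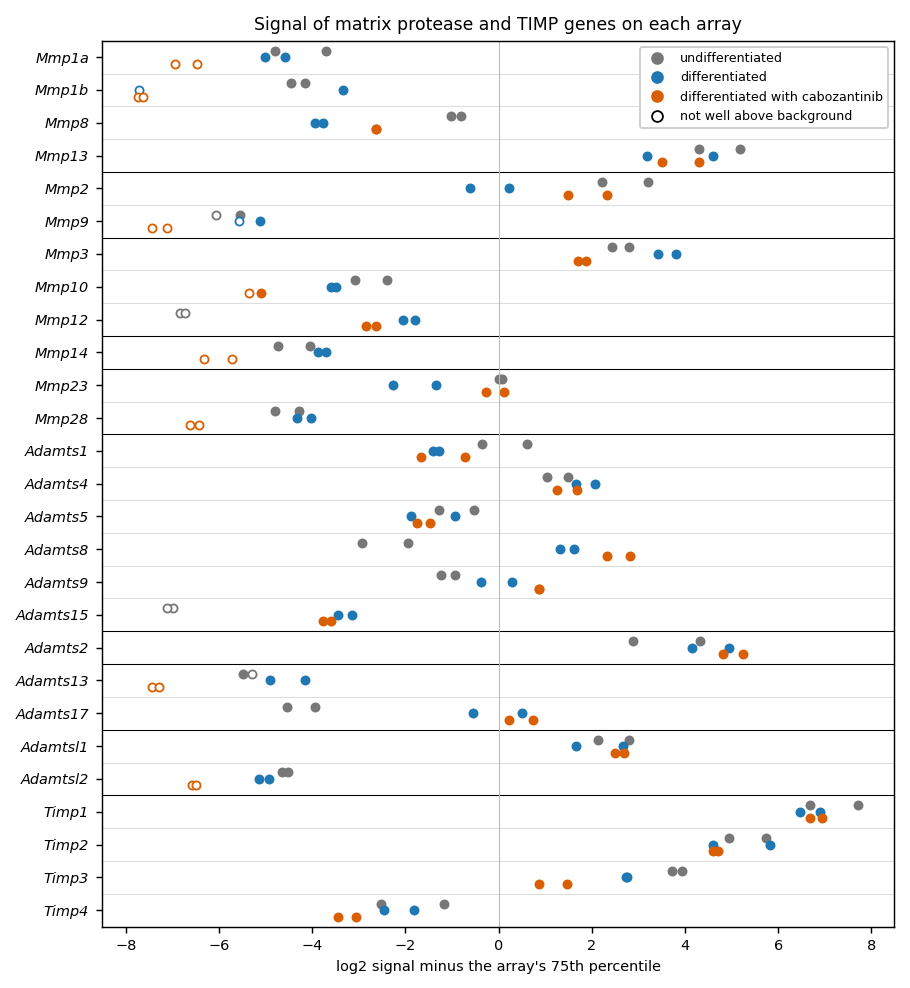
log2 signal minus the 75th percentile of the array (horizontal axis) of each of the 2 undifferentiated (grey), 2 differentiated (blue) and 2 cabozantinib (orange) arrays, for the genes given by their values and Mmp23, with open points not well above background. Adamts8, Adamts15, Adamts17 and Mmp12 have grey points far left of the blue and orange ones, and Mmp2, Mmp8 and Mmp23 have the blue points on the left.

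ADAMTS proteases that cut aggrecan and versican included 2 of the genes raised with differentiation. Adamts8 measured -1.95 and -2.94 in undifferentiated osteoblasts, 1.32 and 1.62 after differentiation and 2.32 and 2.82 with cabozantinib. The pairs did not overlap, with the cabozantinib pair on top. Adamts8 was 15.1-fold higher in differentiated than in undifferentiated osteoblasts (log2 3.92 ± 0.55, adjusted p = 0.00228) and 32.3-fold higher with cabozantinib than in undifferentiated ones (log2 5.01 ± 0.55, adjusted p = 0.00109). It was called in both comparisons here and in all 17 alternative limma fits. Those fits used the same probe or a mean that holds it. The other Adamts8 probe gave log2 fold changes of 0.45 (adjusted p = 0.812) and -0.17 (adjusted p = 0.886) in these comparisons. Cabozantinib against differentiated osteoblasts gave 1.10 ± 0.55 (adjusted p = 0.27).

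Adamts15, its neighbor on chromosome 9, measured -6.99 and -7.11 before differentiation, where it was not well above background, -3.14 and -3.44 after it and -3.59 and -3.77 with cabozantinib. It was at least 5.42-fold higher in differentiated (fitted log2 3.76 ± 0.48, adjusted p = 0.00157) and at least 4.12-fold higher in cabozantinib-treated osteoblasts (adjusted p = 0.00343) than in undifferentiated ones. Adamts9 measured -1.24 and -0.93, then 0.29 and -0.37, then 0.86 and 0.87. The 3 pairs stood in that order without overlap, and the gene was called higher with cabozantinib than in undifferentiated osteoblasts (log2 1.95 ± 0.51, adjusted p = 0.0345). That call was made in 11 of 18 fits. It was lost without the first undifferentiated array (log2 1.64, adjusted p = 0.0606), without either cabozantinib array (log2 2.05 and 1.86, adjusted p = 0.261 and 0.358), after quantile normalization (adjusted p = 0.0532), with the authors' log2 values (adjusted p = 0.0533), after normexp background correction (adjusted p = 0.198) and with no filter on dim probes (adjusted p = 0.0855).

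The other proteoglycanases passed no test. Adamts1 measured -0.36 and 0.61 in undifferentiated osteoblasts, -1.28 and -1.41 after differentiation and -0.73 and -1.67 with cabozantinib. Its log2 fold change was -1.47 ± 0.57 in differentiated against undifferentiated osteoblasts (adjusted p = 0.164). Adamts4, a main aggrecanase of cartilage, measured 1.48 and 1.04, then 1.67 and 2.06, then 1.25 and 1.69. Its groups with and without cabozantinib overlapped. Adamts5, the other main aggrecanase, measured -0.53 and -1.28, then -1.89 and -0.94, then -1.75 and -1.48, and every adjusted p of these 2 genes was 0.425 or above.

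Among the other ADAMTS genes, Adamts17 was raised and Adamts13 was called lower with cabozantinib. Adamts17, whose human gene is mutated in a short-stature syndrome, measured -3.93 and -4.55 before differentiation, -0.54 and 0.51 after it and 0.22 and 0.73 with cabozantinib. It was 18.7-fold higher in differentiated (log2 4.22 ± 0.55, adjusted p = 0.00175) and 26.3-fold higher in cabozantinib-treated osteoblasts (log2 4.71 ± 0.55, adjusted p = 0.0015) than in undifferentiated ones. The differentiated and cabozantinib arrays overlapped. These values come from 1 of its 2 probes, and the other gave a log2 fold change of -1.09 in differentiation (adjusted p = 0.336). With cabozantinib against undifferentiated osteoblasts the other probe gave -1.86 (adjusted p = 0.0583), the opposite direction. Adamts13, the protease of von Willebrand factor, measured -5.30 and -5.49, then -4.16 and -4.91, then -7.43 and -7.29. Adamts13 is in the dimmest bin, where all genes had a median of -1.31 in cabozantinib against differentiated osteoblasts. Its other probe was not well above background on any array. The probe used was well above background on 1 undifferentiated, 2 differentiated and 0 cabozantinib arrays. It read at least 1.85-fold lower with cabozantinib than in differentiated osteoblasts (fitted log2 -2.82 ± 0.50, adjusted p = 0.0473). After quantile normalization that log2 fold change was -1.84 with an adjusted p of 0.193, and over the alternative fits the adjusted p ranged from 0.00436 to 1.

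The procollagen N-proteinases remove the N-terminal propeptide of fibrillar collagens. Adamts2 measured 4.33 and 2.88 in undifferentiated osteoblasts, 4.14 and 4.94 after differentiation and 4.81 and 5.24 with cabozantinib. The cabozantinib pair lay above the undifferentiated pair, with a log2 fold change of 1.42 ± 0.62 that did not pass the test (adjusted p = 0.147). Of the ADAMTS-like genes, Adamtsl1 measured 2.80 and 2.13, then 1.67 and 2.66, then 2.49 and 2.69. All its groups overlapped, and cabozantinib against differentiated osteoblasts gave 0.43 ± 0.55 (adjusted p = 0.779). Adamtsl2, which binds latent TGF-β binding protein, measured -4.64 and -4.52, then -5.15 and -4.93, then -6.58 and -6.49, and was at least 1.79-fold lower with cabozantinib than in undifferentiated osteoblasts (adjusted p = 0.0291). Adamtsl2 is in the dimmest bin, where all genes had a median of -1.30 in this comparison. It was not called after quantile normalization.

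Of the 4 inhibitors, Timp3 was the only one called in any comparison. Timp3, the TIMP that stays bound to the matrix and also inhibits ADAMTS proteases, measured 3.93 and 3.72 before differentiation, 2.73 and 2.75 after it and 1.47 and 0.87 with cabozantinib. The 3 pairs fell in that order without overlap. Timp3 was 6.3-fold lower with cabozantinib than in undifferentiated osteoblasts (log2 -2.65 ± 0.49, adjusted p = 0.0106). The call was lost without either cabozantinib array, at log2 fold changes of -2.91 and -2.40 and adjusted p of 0.0501 and 0.176. The single steps were -1.09 ± 0.49 for differentiation (adjusted p = 0.244) and -1.57 ± 0.49 for cabozantinib against differentiated osteoblasts (adjusted p = 0.0942), and neither passed the test. Without the replicate term the second was called at an adjusted p of 0.0364, and over the alternative fits its adjusted p ranged from 0.00959 to 1.

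By the probe that stands for each gene, the remaining TIMPs varied less. The other probe of Timp2 gave a log2 fold change of -1.93 in differentiated against undifferentiated osteoblasts (adjusted p = 0.0548). Timp1 measured 7.72 and 6.69 in undifferentiated osteoblasts, 6.47 and 6.90 after differentiation and 6.68 and 6.93 with cabozantinib. Timp2, which links MMP14 to pro-MMP2, measured 5.74 and 4.94, then 4.60 and 5.82, then 4.70 and 4.61. Both had overlapping differentiated and undifferentiated groups, and their log2 fold changes with cabozantinib against differentiated osteoblasts were 0.12 ± 0.55 and -0.55 ± 0.58. Timp4 measured -1.17 and -2.53, then -2.46 and -1.82, then -3.45 and -3.07. Its cabozantinib pair was the lowest, and cabozantinib against undifferentiated osteoblasts gave -1.41 ± 0.59 (adjusted p = 0.135).

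The other 11 tested members were called in no comparison. They were Mmp7, Mmp11, Mmp17, Mmp19, Mmp23, Mmp24, Adamts7, Adamts14, Adamts16, Adamts18 and Adamtsl4. Their log2 fold changes ranged from -1.83 (Mmp23) to 0.82 (Adamts14) in differentiation, from -2.22 (Mmp7) to 1.71 (Mmp23) with cabozantinib against differentiated osteoblasts, and from -1.70 (Mmp7) to 0.55 (Adamts14) with cabozantinib against undifferentiated ones. Mmp7, matrilysin, came nearest to the threshold with cabozantinib (adjusted p = 0.0523).

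Different probes of a gene did not always give the same picture. There were 15 members with more than 1 probe, and 8 of them had 2 tested probes. The values above come from the probe with the higher mean signal. For Mmp12 the other probe measured between -4.71 and -3.68 on the 6 arrays and had a log2 fold change of -0.40 in differentiated against undifferentiated osteoblasts (adjusted p = 0.802). The other probe of Adamts8 measured between -4.72 and -3.56, with a log2 fold change of 0.45 (adjusted p = 0.812). The other probe of Adamts17 gave -1.09 (adjusted p = 0.336), and with the mean of its probes Adamts17 was not called (log2 1.57, adjusted p = 0.12). Adamts15 has 1 probe. Thus the rises of Mmp12, Adamts8 and Adamts17 were each seen by 1 of 2 probes. The positions of these probes in the transcripts are not in the tables used here.

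Probe pairs of other members differed as well. The other probe of Timp2 gave -1.93 in differentiated against undifferentiated osteoblasts (adjusted p = 0.0548) where the brighter probe gave -0.13. For Mmp11, stromelysin 3, the probes gave -1.27 (adjusted p = 0.162) and 0.16. For Adamts16 they gave opposite signs with cabozantinib against differentiated osteoblasts, 0.86 for the dimmer and -2.02 for the brighter probe, and neither passed the test.

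**Figure D4:**
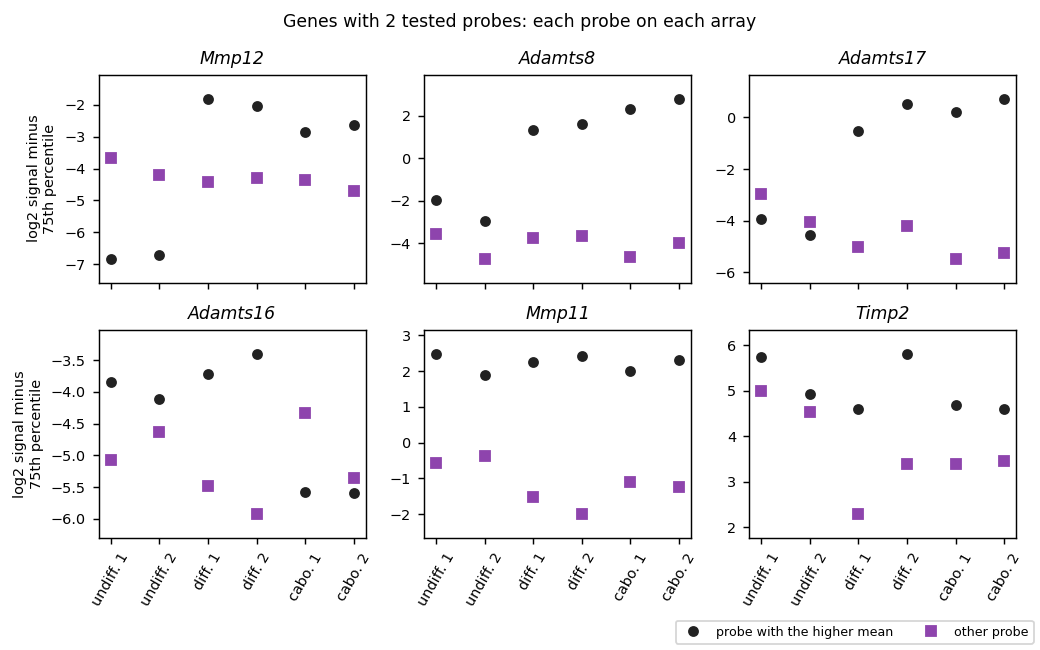
log2 signal minus the 75th percentile (vertical axis) of both tested probes of 6 genes on the 6 arrays (horizontal axis), with black circles for the probe that stands for the gene and purple squares for the other. In Mmp12, Adamts8 and Adamts17 the black circles step up after the undifferentiated arrays and the purple squares do not.

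Among the members, 10 MMP genes stand side by side on chromosome 9 with no other protein-coding gene between them, in the order Mmp13, Mmp12, Mmp1b, Mmp3, Mmp1a, Mmp10, Mmp8, Mmp27, Mmp20 and Mmp7. Adamts8 and Adamts15 are neighbors elsewhere on that chromosome, and Adamts1 and Adamts5 are neighbors on chromosome 16. The 8 tested genes of the MMP cluster did not move as a block. Mmp12 was called higher and Mmp8 lower in differentiation, while Mmp13 between -0.84 and 0.01 passed no test in any comparison. With cabozantinib against differentiated osteoblasts, Mmp3, Mmp10, Mmp1a, Mmp7 and Mmp1b had log2 fold changes between -2.22 and -1.68, Mmp12 had -0.80, Mmp13 had 0.01 and Mmp8 had 1.23, and none passed the test. Of these, Mmp3 and Mmp13 were in the brightest bin, and Mmp1a, Mmp1b and Mmp7 in the dimmest.

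**Figure D5:**
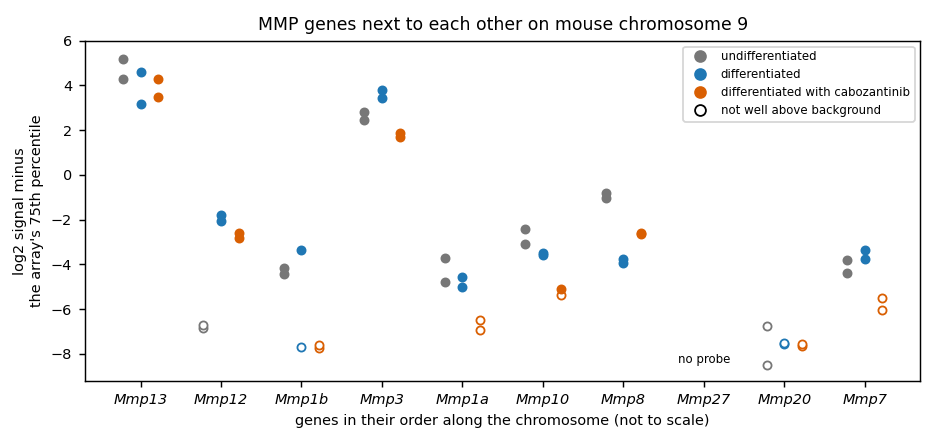
log2 signal minus the 75th percentile (vertical axis) on each array for the 10 MMP genes that adjoin on chromosome 9, in gene order, colored by condition and with open points not well above background. Mmp12 steps up from undifferentiated to differentiated osteoblasts, Mmp13 and Mmp3 do not by a called amount, and Mmp8 has both cabozantinib points above its differentiated ones.

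The upstream sequences of this cluster are shown because they share a feature that the rule did not use. AP-1, the Fos and Jun dimer, is known to act at several MMP promoters, and RUNX2 at the Mmp13 promoter. RefSeq promoter windows of 300 bases (250 before to 50 after a start, GRCm38.p6) were found for 36 member genes. TGANTCA, the AP-1 letters, on either strand, was present in windows of 8 of these genes and in 7.81% of all 32851 windows. All 8 are in the chromosome 9 cluster, where 10 genes have a window: Mmp13, Mmp12, Mmp1b, Mmp3, Mmp1a, Mmp10, Mmp20 and Mmp7. TGTGGT, the RUNX letters, on either strand, was present in windows of 6 member genes (Mmp7, Mmp13, Mmp14, Mmp1b, Mmp23 and Mmp27) and in 16.8% of all windows. No AP-1 match overlapped a RUNX match in the member windows. The 100 bases before the start follow for the genes of the cluster that were tested, 5′ to 3′ on the strand of the gene, with the AP-1 letters in capitals.
Mmp13, chr9:7272414-7272513, plus strand: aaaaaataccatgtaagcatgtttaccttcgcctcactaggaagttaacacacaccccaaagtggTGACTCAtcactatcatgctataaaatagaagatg
Mmp12, chr9:7347274-7347373, plus strand: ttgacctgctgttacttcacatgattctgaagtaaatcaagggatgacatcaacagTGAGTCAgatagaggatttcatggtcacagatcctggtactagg
Mmp1b, chr9:7388027-7388126, minus strand: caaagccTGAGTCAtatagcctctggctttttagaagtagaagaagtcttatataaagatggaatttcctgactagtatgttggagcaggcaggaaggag
Mmp3, chr9:7445722-7445821, plus strand: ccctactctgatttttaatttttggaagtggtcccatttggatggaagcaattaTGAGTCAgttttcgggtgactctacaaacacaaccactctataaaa
Mmp1a, chr9:7464041-7464140, plus strand: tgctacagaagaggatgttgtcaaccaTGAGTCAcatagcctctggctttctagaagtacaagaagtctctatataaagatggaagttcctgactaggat
Mmp10, chr9:7502242-7502341, plus strand: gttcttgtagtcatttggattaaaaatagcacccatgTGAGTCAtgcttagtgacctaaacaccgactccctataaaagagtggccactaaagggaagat
Mmp8, chr9:7558329-7558428, plus strand: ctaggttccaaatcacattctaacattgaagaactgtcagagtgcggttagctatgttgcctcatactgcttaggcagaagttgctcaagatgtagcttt
Mmp7, chr9:7691990-7692089, plus strand: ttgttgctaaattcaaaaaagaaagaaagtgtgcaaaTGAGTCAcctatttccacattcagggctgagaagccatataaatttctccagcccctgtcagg

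Of these 8 stretches, 7 hold the AP-1 letters, beginning 35 (Mmp13), 44 (Mmp12), 93 (Mmp1b), 46 (Mmp3), 73 (Mmp1a), 63 (Mmp10) and 63 (Mmp7) bases before the start. Mmp8 has none in its window. Mmp12 and Mmp7 have 2 windows each, and the letters are in the one shown. Whether the letters bear on the levels of these genes was not tested.

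Genes around the proteases were counted from lists of the pathway. Over all genes 5.26% were called higher and 4.45% lower in differentiation. Those shares were 0.121% and 2.55% in cabozantinib against differentiated and 4.68% and 8.71% in cabozantinib against undifferentiated osteoblasts. With lists this short, 1 call is not read as a result about a list. Of 11 transcription factors tested (AP-1 subunits, RUNX2, SP7, ETS factors and C/EBPβ), 1 was called lower in differentiation and 0 higher. That gene was Fosl1, the AP-1 subunit FRA1, which measured -1.07 and -1.17, then -3.81 and -3.68, then -4.99 and -4.36 (log2 -2.62, adjusted p = 0.00905 in differentiation). In the plasminogen system, Serpinb2 (log2 -6.69, adjusted p = 0.000238) and Plat (at least 6.09-fold, adjusted p = 0.00621) were called lower in differentiation. Serpinb2 encodes an inhibitor of plasminogen activators and Plat encodes such an activator. Neither was called in cabozantinib against differentiated osteoblasts (log2 0.01, adjusted p = 0.997 for Serpinb2 and log2 1.10, adjusted p = 0.489 for Plat).

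Of the activators and further inhibitors of matrix proteases, 1 of 7 tested was called lower in differentiation, Bsg, which encodes the MMP inducer basigin (at least 9.12-fold, adjusted p = 0.00287), and 0 higher. Of 10 ADAM proteases tested, 2 were called higher in differentiation, Adam8 (log2 2.14, adjusted p = 0.0304) and Adam33 (log2 2.42, adjusted p = 0.0199), and 0 lower. Of 8 other secreted metallopeptidases tested, 5 were called higher in differentiation and 0 lower: Phex, Cpxm2, Cpxm1, Pappa2 and Mme. Phex, the bone peptidase lost in X-linked hypophosphatemia, rose by 6.38 on the log2 scale (adjusted p = 0.000264), and Pappa2, which cuts IGF binding proteins, by 2.11 (adjusted p = 0.0313). For these lists the direct comparison of cabozantinib with differentiated osteoblasts gave 0 calls.

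Tolloid proteases and procollagen enhancers had 1 of 6 genes called lower in differentiation, Pcolce2 (log2 -2.57, adjusted p = 0.00878), and 1 called lower with cabozantinib, Mep1b, in cabozantinib against differentiated osteoblasts (at least 3.21-fold, adjusted p = 0.049). Of 8 proteoglycans, 1 was called lower in differentiation, Fmod (log2 -2.81, adjusted p = 0.0259), and 1 was called higher with cabozantinib than in undifferentiated osteoblasts, Bcan, which encodes brevican (log2 3.07, adjusted p = 0.0109). Of 13 collagens and glycoproteins, 1 was called higher in differentiation, Col10a1 (log2 2.68, adjusted p = 0.00818). Col1a1 gave a log2 fold change of 0.24 in differentiation (adjusted p = 0.938) and Acan one of -0.66 (adjusted p = 0.616). With cabozantinib against differentiated osteoblasts, 0 of the 21 substrate genes were called.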

How the data were processed

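RNA of 6 samples of primary osteoblasts was labeled with Cy3 and hybridized to 1-color Agilent whole mouse genome arrays. The deposited scanner files hold intensities that, per the file headers, the authors obtained with Feature Extraction 11.0.1.1 on an mm9 array grid, background-subtracted and not scaled between arrays. The authors also deposited log2 values with nearly equal distributions on the arrays, and the steps behind them are not given in the sources used here. These were used as an alternative.

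After control spots and flagged outliers were dropped, log2 intensities were averaged per probe and centered on each array's 75th percentile. No spot was saturated. The 27232 probes that passed the background call on 2 or more of the 6 arrays were fitted with limma 3.58.1 in R 4.3.3, with condition and replicate number as terms, since a paired test is named in the methods. With 2 residual degrees of freedom per probe, pooling over probes contributed a further 7.7. P values were adjusted by Benjamini-Hochberg over probes, and of several probes of a gene the one with the highest mean was taken. An "at least" fold sets the mean of the brighter group against the lowest signal well above background on each array of the dimmer one, or the probe's own signal where higher. The number of arrays limits the precision.

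Values on each array are given for members called in any comparison, for a set with known parts in bone or cartilage matrix and the inhibitors, and for those picked by the study on these arrays. The members, lists and this rule were chosen with earlier results of these data known. The counts of the plasminogen list are not reported here. The code was tested on simulated data. Other scalings, background corrections, filters, models and each left-out array were tried as alternatives. RefSeq (GRCm38.p6) supplied gene names and neighbors. Tables were handled with Python 3.11.15, pandas 2.3.3, numpy 2.4.6 and matplotlib 3.10.9.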

Additional observations from a re-analysis of the deposited data

How the results depend on the processing

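Settings are compared by how many of the members were called in differentiated against undifferentiated, cabozantinib against differentiated, and cabozantinib against undifferentiated osteoblasts (6, 2 and 13 in the analysis above). The count for the second comparison, and often that for the third, moved with most settings, and the cause was not tested. Quantile normalization and the authors' log2 values each gave 0 in the second and 5 in the third. Normexp background correction, run on the median signals since mean signals are not in the files used, gave 3, 0 and 3. No filter on dim probes gave 0 in the second and 6 in the third, and keeping probes that passed the background call on all 6 arrays gave 0 and 5. Without the replicate block the second count was 14 (2 higher, 12 lower), with only the 4 arrays compared it was 16, with probes averaged per gene 4, and with the 75th percentile over spots, added after seeing the data, 0. The replicate numbers were not shown to pair the arrays, with correlations of the replicate differences of -0.51 (undifferentiated and differentiated), -0.53 (undifferentiated and cabozantinib) and 0.26 (differentiated and cabozantinib). Crossing the numbers of the undifferentiated arrays in the replicate block, also added then, gave 11, 18 and 23. The methods' t-test with an over 2-fold change at an unadjusted p under 0.05 gave 4 in the first, 7 in the second and 8 in the third, and after Benjamini-Hochberg it gave 0, 0 and 0. Leaving out 1 array gave 5 to 10 in the first comparison, highest without the first undifferentiated array, 0 to 16 in the second and 4 to 17 in the third. Of the single-gene values, 2 reversed: under the filter that needs all 6 arrays, Mmp12 was read by its other probe and had log2 fold changes of -0.40 in differentiated and -0.59 in cabozantinib-treated against undifferentiated osteoblasts. After normexp correction Mmp12, Adamts15 and Mmp8 were not called in differentiation (log2 1.80, 1.01 and -2.10). The median log2 fold change of all genes in cabozantinib against differentiated osteoblasts was -0.29, and -0.08 after quantile normalization.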
